A study of Mus musculus with 12 samples.

Results

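RNA levels of 10 endoplasmic reticulum stress genes were compared in livers of Lcn2 null and wild type mice after repeated CCl4 or mineral oil injection. The genes are Hspa5, Hsp90b1, Sdf2l1, Pdia4, Dnajb9, Herpud1, Xbp1, Atf4, Ddit3 and Trib3, taken by their symbols as widely used readouts of the unfolded protein response, in a choice made with earlier results of these data known. All 10 were found in each of the 4 deposited tables, of 16292 genes listed in any table and 13741 listed in every table. RNA of whole liver was sequenced in 12 libraries, 3 in each of 4 groups. Female C57BL/6 mice were 8 weeks old at the start and received intraperitoneal injections 2 times per week for 8 weeks. The groups were Lcn2-/- mice given 0.8 ml/kg CCl4 diluted in mineral oil, wild type mice given the same CCl4 dose, Lcn2-/- mice given mineral oil and wild type mice given mineral oil. Livers were taken 48 h after the last injection. CCl4 is a liver poison that hepatocytes convert to a reactive radical, and Lcn2 encodes lipocalin 2, a secreted protein of neutrophils and of injured liver that withholds iron from bacteria. The oil carrier was common to all 4 groups, and no uninjected mice were compared here. The labels number the replicates without naming separate mice, so the p-values rest on the scatter among libraries of a group, and part of that scatter could be technical.

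The endoplasmic reticulum folds secreted and membrane proteins, and the hepatocyte, which makes most plasma proteins, holds a large amount of it. When unfolded proteins accumulate, the sensors PERK, IRE1 and ATF6 start the unfolded protein response: ATF6 and spliced XBP1 raise chaperones and degradation factors, while PERK slows translation and favours production of ATF4, which in turn raises Ddit3 (CHOP) and Trib3. Much of this control acts on protein and splicing, which gene-level RNA counts do not show.

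ATF6 and XBP1 are known to bind the endoplasmic reticulum stress element (ERSE, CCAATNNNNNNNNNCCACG) and its shorter form ERSE-II (ATTGGNCCACG), and ATF4 with a C/EBP partner binds the C/EBP-ATF response element (CARE, TGATGNAA). These letters were searched on both strands in RefSeq promoter windows of 250 bases before to 50 bases after each gene's start (GRCm38.p6), in which all 10 genes were found. The matched stretches of Hspa5, Hsp90b1 and Herpud1 are shown because their matches lie before the start. Capitals mark the fixed letters of each match.
Hspa5, chr2:34772020-34772048 (+): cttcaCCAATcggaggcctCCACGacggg
Hsp90b1, chr10:86705521-86705668 (-): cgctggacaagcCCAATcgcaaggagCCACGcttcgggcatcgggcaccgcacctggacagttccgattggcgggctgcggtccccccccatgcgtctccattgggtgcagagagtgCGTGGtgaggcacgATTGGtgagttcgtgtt
Herpud1, chr8:94386305-94386399 (+): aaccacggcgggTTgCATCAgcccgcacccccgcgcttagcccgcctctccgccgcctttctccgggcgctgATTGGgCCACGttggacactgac
The Hspa5 stretch holds 1 ERSE and the Hsp90b1 stretch 2, the second on the opposite strand. The Hspa5 stretch lies inside the GENCODE interval of the gene given below, which begins upstream of the RefSeq start used here. The Herpud1 stretch holds a CARE on the opposite strand, upstream of an ERSE-II. Trib3 held 1 CARE just after its start. Of 32851 windows, 39 (0.119%) held an ERSE, 12 (0.0365%) an ERSE-II and 1304 (3.97%) a CARE. The unfolded protein response element (UPRE, TGACGTGG) was in 222 windows (0.676%) and in 0 of the 10. The other genes had no match to these letters in this window. A match is a run of letters and not a measured binding site.

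The libraries held 7582962 to 14591487 reads in genes (median 8933716), and 3 reads equalled 0.206 to 0.396 CPM (the count of a gene scaled to the library's total in genes). Lcn2 was at 4.63 to 16.7 CPM in Lcn2 null livers with CCl4 against 405 to 557 CPM in wild type livers with CCl4, and at 3.44 to 7.74 CPM in Lcn2 null livers with oil against 345 to 1045 CPM in wild type livers with oil, so every library fitted its label. The 6 hepatocyte markers summed to 57927 to 97412 CPM over all libraries, and all were detected in each. In whole liver, fewer cells of a type and less RNA per cell cannot be told apart. Other markers moved with the groups. The 9 stellate cell markers summed to 756 to 1507 CPM in Lcn2 null CCl4 livers and 1264 to 1971 CPM in wild type CCl4 livers, against 212 to 357 CPM in Lcn2 null oil livers and 393 to 500 CPM in wild type oil livers. The 5 markers of dividing cells summed to 363 to 414 CPM and 312 to 451 CPM on CCl4 in the Lcn2 null and wild type groups, against 4.23 to 6.43 CPM and 9.72 to 18.8 CPM on oil. On oil, the 8 neutrophil markers summed to 23.1 to 43.2 CPM in Lcn2 null livers, with 5 of the 8 at 0 in at least 1 library, and to 167 to 235 CPM in wild type livers. With CCl4 they summed to 61.5 to 115 CPM in Lcn2 null livers, above the Lcn2 null oil livers, and to 80.5 to 116 CPM in wild type livers, below the wild type oil livers. The 9 Kupffer cell and macrophage markers summed to 477 to 657 CPM in Lcn2 null oil livers and 946 to 1849 CPM in wild type oil livers, and to 684 to 1083 CPM and 797 to 1409 CPM in Lcn2 null and wild type CCl4 livers. These 9 split on CCl4 against oil, with 7 positive log2 fold changes in Lcn2 null and 2 in wild type livers. Of all genes, 76.7% and 75.1% were positive there. The 5 measured bile duct markers of 6 summed to 202 to 268 CPM and 317 to 736 CPM in Lcn2 null and wild type CCl4 livers, and to 42.9 to 48.9 CPM and 86.6 to 200.6 CPM in Lcn2 null and wild type oil livers. Plasma cells, which carry much reticulum, are another source of these transcripts, and 7 measured markers of 8 summed to 265 to 305 CPM in Lcn2 null CCl4 livers against 321 to 401 CPM in wild type CCl4 livers, and to 215 to 242 CPM in Lcn2 null oil livers against 254 to 315 CPM in wild type oil livers. Their sums were thus lower in Lcn2 null livers with no overlap on either treatment. Of the 7 markers, 1 had a positive log2 fold change between the genotypes on CCl4 and 0 on oil. On CCl4 against oil in wild type livers the sum was higher, while only 3 of the 7 were positive (median -0.10). The part of these cells in the results below was not tested.

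Each gene was tested with limma on log2(CPM + 1), and a gene was called where its p, adjusted over all genes tested by Benjamini-Hochberg, was 0.05 or less and its log2 fold change exceeded 0.56 in size. Fold changes below are on that scale, which understates changes of low genes. The deposited CPM were scaled to the library total only. The 20 most abundant genes took 24.1% to 25.9% and 23.5% to 26.2% of reads in Lcn2 null and wild type CCl4 livers, against 27.9% to 29.2% and 27.1% to 28.6% in Lcn2 null and wild type oil livers. The median log2 fold change of all genes on CCl4 against oil was 0.35 in Lcn2 null and 0.27 in wild type livers, and 0.03 and 0.01 after DESeq2 size factors. Results of the CCl4 comparisons are therefore given under both scalings. The 4 comparisons share groups of libraries, so their values stand side by side and are not independent of each other. Statements below that groups overlap or lie apart are on deposited CPM. The share of all genes whose groups lie apart was not counted.

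With CCl4 against oil in Lcn2 null livers, 6 of the 10 genes were called on deposited CPM, 4 higher and 2 lower, where 34.1% of all 15645 genes were called (29.6% higher and 4.51% lower). In wild type livers 3 of the 10 were called, 2 higher and 1 lower, where 21.7% of all 15841 genes were called (18.5% higher and 3.18% lower). After size factors, 0 of the 10 were called higher with limma in either genotype, and 2 were called lower in each, Herpud1 and Trib3 in Lcn2 null livers (12.5% of all genes higher and 10.8% lower) and Herpud1 and Sdf2l1 in wild type livers (7.37% higher and 7.01% lower). Without adjustment, after size factors, 3 of the 10 were higher and 3 lower at p under 0.05 in Lcn2 null livers, where 39.7% of all genes had such a p in either direction, and 1 was higher and 4 lower in wild type livers, where 30.4% had. edgeR on the reads also called 0 of the 10 higher, where it called 12.7% of all genes higher in Lcn2 null and 7.26% in wild type livers. DESeq2 called 0 higher in Lcn2 null livers (13.3% of all genes) and Ddit3 in wild type livers (8.13%). The median log2 fold change of the 10 genes was 0.49 in Lcn2 null and 0.03 in wild type livers, and 0.07 and -0.31 after size factors.

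**Figure D1:**
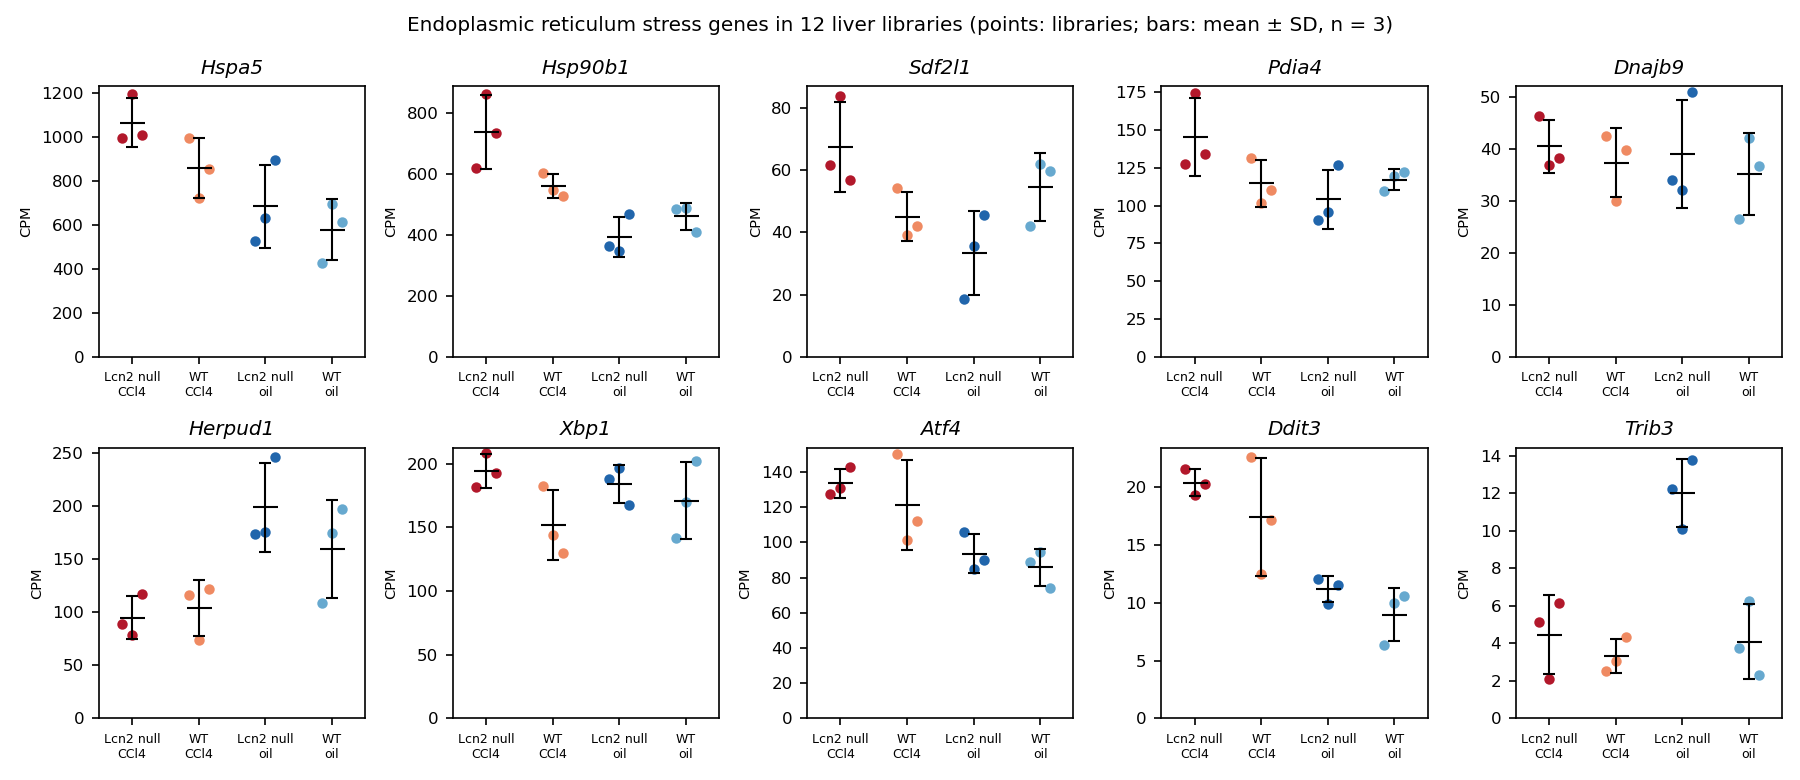
CPM of the 10 genes in each of the 12 libraries (points), with the mean and SD of each group of 3 (bars), on linear axes that start at 0. Herpud1 was lower in all 3 Lcn2 null CCl4 libraries than in any Lcn2 null oil library, and Trib3 was highest in the 3 Lcn2 null oil libraries.

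Among the lumenal chaperones, Hspa5 (BiP, chr2:34771970-34777547, GRCm38, the Hsp70 chaperone that holds the sensors inactive) had 996, 1194 and 1009 CPM in the Lcn2 null CCl4 libraries, against 528, 631 and 896 CPM in the Lcn2 null oil libraries. Hspa5 in wild type livers had 998, 722 and 857 CPM with CCl4, against 425, 696 and 616 CPM with oil. Every CCl4 library lay above every oil library of its genotype, in the wild type by a small margin. Hspa5 was called higher on CPM in Lcn2 null livers (log2 fold change 0.67 ± 0.16 SE, adjusted p = 0.00459) and in wild type livers (0.59 ± 0.17 SE, adjusted p = 0.0181), but not after size factors, where the values were 0.24 (adjusted p = 0.299) and 0.25 (adjusted p = 0.391). In wild type livers the Hspa5 call was also lost without CCl4 replicate 1 (0.47, adjusted p = 0.103), CCl4 replicate 3 (0.58, adjusted p = 0.0554) or oil replicate 1 (0.38, adjusted p = 0.0822), and in Lcn2 null livers it was lost without oil replicate 1, where the log2 fold change was 0.50.

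Hsp90b1 (GRP94, chr10:86690209-86705509, the Hsp90 chaperone of the lumen) had 621, 864 and 735 CPM in Lcn2 null CCl4 libraries, against 365, 348 and 470.5 CPM in Lcn2 null oil libraries. The corresponding wild type values were 604, 549.6 and 529 CPM with CCl4, against 487, 488.5 and 409 CPM with oil. CCl4 libraries lay above oil libraries in both genotypes, and the gap was wider in Lcn2 null livers. Hsp90b1 was called higher on CPM in Lcn2 null livers (log2 fold change 0.91 ± 0.13 SE, adjusted p = 0.000199), and had 0.47 after size factors (adjusted p = 0.0171, below the fold threshold). The wild type log2 fold change was 0.28 ± 0.11 SE (adjusted p = 0.0757) on CPM and turned to -0.06 after size factors. The annotated genes 1810014B01Rik, Gm15344 and Gm25745 overlap Hsp90b1, and their reads could not be told apart from its own here.

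Sdf2l1 (chr16:17130138-17132383), a small lumenal protein of the BiP chaperone complex, had 61.6, 83.9 and 56.8 CPM in Lcn2 null CCl4 libraries, against 18.7, 35.8 and 45.6 CPM in Lcn2 null oil libraries. In the wild type it had 54.2, 39.1 and 42.0 CPM with CCl4, against 41.9, 62.1 and 59.6 CPM with oil. The Lcn2 null groups did not overlap, and the wild type groups did. Sdf2l1 was called higher on CPM in Lcn2 null livers (log2 fold change 1.06 ± 0.25 SE, adjusted p = 0.00479) and had 0.64 after size factors (adjusted p = 0.0732). Its wild type values had the other sign, -0.26 on CPM (adjusted p = 0.239) and -0.60 after size factors (adjusted p = 0.0195), a call that CPM did not give.

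Pdia4 (ERp72, chr6:47796141-47813430), a protein disulfide isomerase, had 128, 175 and 134 CPM in Lcn2 null CCl4 libraries, against 90.8, 95.55 and 127 CPM in Lcn2 null oil libraries. Wild type libraries had 132, 102 and 110.2 CPM with CCl4, against 109.6, 119.8 and 122 CPM with oil. The Lcn2 null groups were barely separated, and the wild type groups overlapped. Its log2 fold change was 0.48 ± 0.14 SE in Lcn2 null livers (adjusted p = 0.0169, below the fold threshold) and 0.05 after size factors (adjusted p = 0.839). Pdia4 passed on CPM there without CCl4 replicate 1 (0.56, adjusted p = 0.0212) or oil replicate 3 (0.62). With 1 library left out at a time it ranged from 0.34 to 0.62 there, with adjusted p up to 0.078. The wild type value was -0.04 on CPM and -0.38 after size factors (adjusted p = 0.0293, below the fold threshold). Dnajb9 (ERdj4, chr12:44205559-44210326), a J-domain partner of BiP, overlapped between CCl4 and oil in both genotypes, with 36.8 to 46.3 CPM against 32.0 to 50.8 CPM in Lcn2 null livers and 29.9 to 42.4 CPM against 26.6 to 42.1 CPM in wild type livers. Dnajb9 was not called under either scaling, and its log2 fold change of 0.08 in Lcn2 null and 0.10 in wild type livers turned to -0.35 and -0.24 after size factors.

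Herpud1 (chr8:94386438-94395377), a membrane protein of the degradation machinery that is usually induced together with the chaperones, was lower on CCl4. It had 88.6, 78.2 and 118 CPM in Lcn2 null CCl4 libraries, against 174, 175.5 and 247 CPM in Lcn2 null oil libraries. Wild type livers had 116, 73.5 and 122 CPM with CCl4, against 108, 174.7 and 197 CPM with oil. All Lcn2 null CCl4 libraries lay below all Lcn2 null oil libraries, whereas oil replicate 1 overlapped the CCl4 group in the wild type. Herpud1 fell by 1.06 on the log2 scale in Lcn2 null livers (± 0.16 SE, adjusted p = 0.00021), and by 1.49 after size factors (adjusted p = 1.37e-05). It stayed called there without any 1 library, at -1.23 to -0.90. Herpud1 in wild type livers fell by 0.61 (± 0.21 SE, adjusted p = 0.0387), and by 0.95 after size factors (adjusted p = 0.00694). The wild type call on CPM was lost without CCl4 replicate 1, CCl4 replicate 2, oil replicate 2 or oil replicate 3, with log2 fold changes of -0.71, -0.38, -0.52 and -0.44. Gm15890 on the opposite strand overlaps Herpud1.

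Xbp1 (chr11:5520659-5525893), the transcription factor whose mRNA IRE1 splices, was counted here over all its splice forms. Xbp1 had 182, 209 and 192 CPM in Lcn2 null CCl4 livers, against 188, 197 and 168 CPM in Lcn2 null oil livers. It had 183, 144 and 129.5 CPM in wild type CCl4 livers, against 141.5, 170.0 and 202 CPM in wild type oil livers. The groups overlapped in both genotypes. The log2 fold change was 0.08 in Lcn2 null livers and turned to -0.35 after size factors (adjusted p = 0.0133, below the fold threshold), and was -0.17 and -0.51 in wild type livers (adjusted p = 0.411 and 0.0285).

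In the PERK arm, Atf4 (chr15:80255184-80257541) had 127, 131 and 143 CPM in Lcn2 null CCl4 livers, against 106, 84.8 and 90.1 CPM in Lcn2 null oil livers. Wild type libraries had 150.2, 101 and 112 CPM with CCl4, against 88.9, 94.5 and 74.2 CPM with oil. The CCl4 libraries lay above the oil libraries in both genotypes. Log2 fold changes were 0.51 ± 0.10 SE in Lcn2 null livers (adjusted p = 0.00174) and 0.48 ± 0.14 SE in wild type livers (adjusted p = 0.021), both below the fold threshold, and 0.08 and 0.14 after size factors. Atf4 passed on CPM at 0.60 in Lcn2 null livers without oil replicate 1 and at 0.60 in wild type livers without CCl4 replicate 2. With 1 library left out at a time it ranged from 0.45 to 0.60 in Lcn2 null and 0.32 to 0.60 in wild type livers. The highest adjusted p was 0.0119 and 0.107.

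Ddit3 (CHOP, chr10:127290774-127296288), a transcription factor that promotes cell death in lasting stress, had 21.6, 19.3 and 20.3 CPM in Lcn2 null CCl4 livers, against 12.1, 9.90 and 11.5 CPM in Lcn2 null oil livers. Wild type libraries had 22.6, 12.5 and 17.1 CPM with CCl4, against 6.37, 9.96 and 10.6 CPM with oil. No CCl4 library was as low as an oil library in either genotype, and the wild type libraries scattered more. Ddit3 was called higher on CPM in Lcn2 null livers (log2 fold change 0.82 ± 0.15 SE, adjusted p = 0.00095) and wild type livers (0.88 ± 0.23 SE, adjusted p = 0.0121). After size factors the values were 0.41 (adjusted p = 0.0595) and 0.56 (adjusted p = 0.11), positive but not called. The wild type call was lost without CCl4 replicate 1 (0.68, adjusted p = 0.0768) or oil replicate 1 (0.67, adjusted p = 0.0536). Counts ranged from 70 to 205 reads per library, and Mars and Gm4189 on the opposite strand and a further gene model with the same symbol overlap this gene.

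Trib3 (chr2:152337422-152344032), a pseudokinase induced by ATF4 and CHOP that also binds AKT, had 5.14, 2.11 and 6.13 CPM in Lcn2 null CCl4 livers, against 12.2, 10.1 and 13.8 CPM in Lcn2 null oil livers. In the wild type Trib3 had 2.54, 3.08 and 4.31 CPM with CCl4, against 3.73, 6.24 and 2.28 CPM with oil. The 3 Lcn2 null oil libraries thus stood above all 9 others. Trib3 fell by 1.33 on the log2 scale in Lcn2 null livers (± 0.29 SE, adjusted p = 0.00275), and by 1.70 after size factors (adjusted p = 0.000504). The wild type log2 fold change was -0.18 (adjusted p = 0.693). It was the lowest of the 10 genes, with 19 to 141 reads per library.

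**Figure D2:**
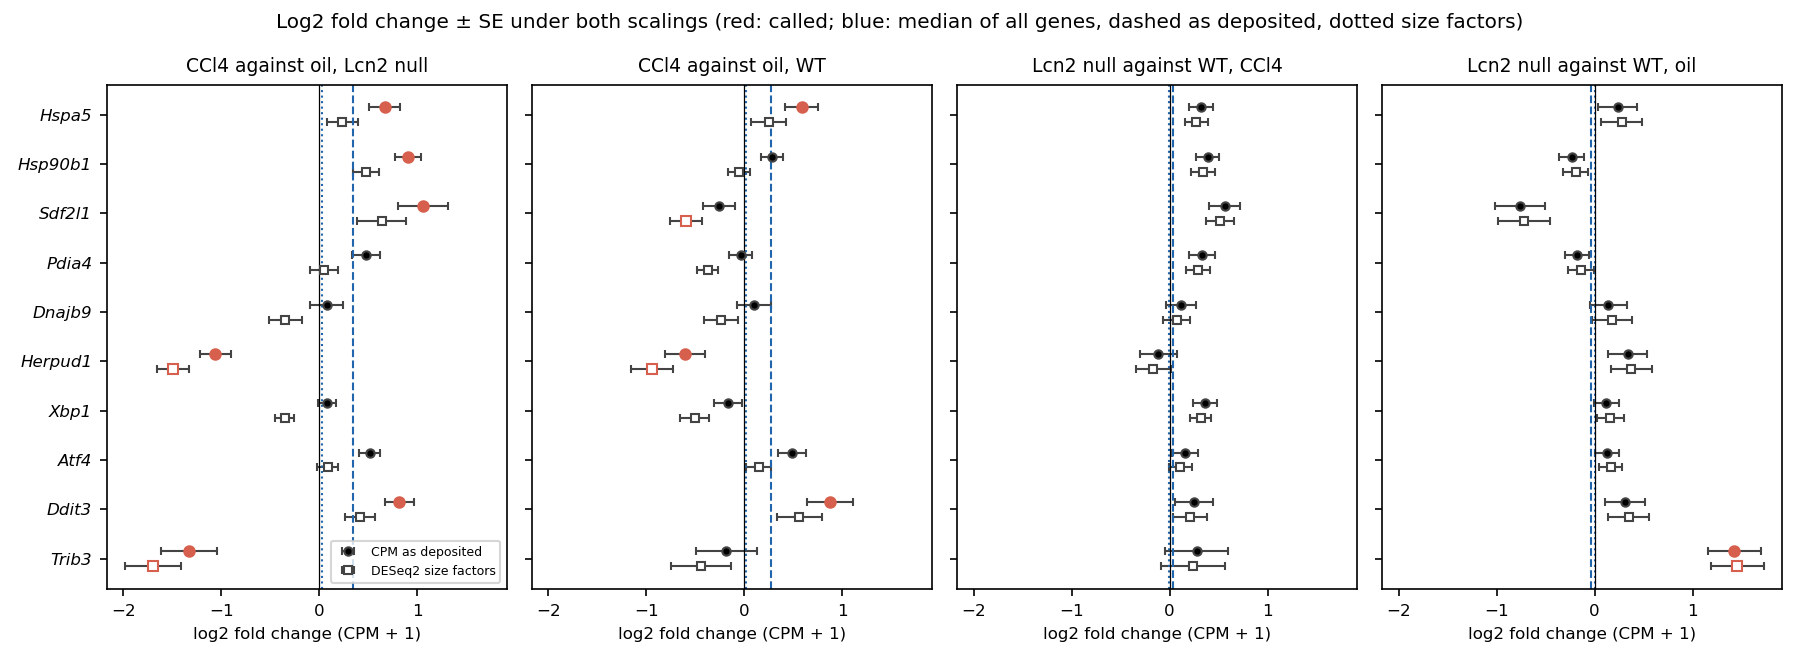
Log2 fold change with its SE for each gene in the 4 comparisons, from deposited CPM (filled circles) and after DESeq2 size factors (open squares). Red marks called genes, and blue lines mark the median of all genes as deposited (dashed) and after size factors (dotted). The higher calls on CCl4 are lost after size factors, and Herpud1 in both genotypes and Trib3 in Lcn2 null livers stay called lower.

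On oil, the comparison of Lcn2 null with wild type livers asks what the deletion changes without the poison. It called 1 of the 10 genes, Trib3, where 4.91% of all 14202 genes were called (1.11% higher and 3.80% lower). Trib3 averaged 12.03 ± 1.83 CPM in Lcn2 null livers and 4.08 ± 2.00 CPM in wild type livers (SD, n = 3 each), or 111 to 141 reads against 19 to 52 reads per library. The groups did not overlap, and the same 3 Lcn2 null oil libraries enter the CCl4 comparison of Trib3 above. Its log2 fold change was 1.42 ± 0.27 SE (adjusted p = 0.0089), 1.46 after size factors (adjusted p = 0.00776) and 1.15 to 1.72 without any 1 library (highest adjusted p = 0.041), and edgeR and DESeq2 also called it. Of all genes, 4.87% were called on oil after size factors, 4.74% by edgeR and 6.66% by DESeq2. On oil the sums of neutrophil and macrophage markers given above were lower in Lcn2 null livers. Hepatocyte markers summed to 83491 to 97412 CPM in the Lcn2 null group and 57927 to 77268 CPM in the wild type group. Of these 6 markers, 3 had a positive log2 fold change and 0 were called, with a median of 0.07 (-0.48 to 0.45). The part of these differences in the Trib3 value was not tested. Sdf2l1 averaged 33.4 ± 13.6 CPM in the Lcn2 null group and 54.6 ± 11.01 CPM in the wild type group and was not called (log2 fold change -0.76 ± 0.26 SE, adjusted p = 0.112), although without Lcn2 null oil replicate 3 it was (-1.02, adjusted p = 0.0395). With 1 library left out at a time it ranged from -1.02 to -0.40, with adjusted p up to 0.31. The other 8 genes had log2 fold changes between -0.23 (Hsp90b1) and 0.34 (Herpud1), with adjusted p of 0.35 or more, and their groups overlapped.

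On CCl4, 0 of the 10 genes were called between Lcn2 null and wild type livers, by limma, edgeR or DESeq2, where limma called 0.298% of all 14445 genes (43 genes), 0.284% after size factors, edgeR 0.215% and DESeq2 1.27%. At an unadjusted p under 0.05, 5 of the 10 were higher in Lcn2 null livers and 0 lower, where 8.67% of all genes had such a p in either direction. The 5 were Sdf2l1, Hsp90b1, Xbp1, Hspa5 and Pdia4, with log2 fold changes of 0.56, 0.39, 0.36, 0.32 and 0.33. Sdf2l1 averaged 67.4 ± 14.5 CPM in the Lcn2 null group and 45.1 ± 8.01 CPM in the wild type group, and Hsp90b1 averaged 739.9 ± 121 CPM and 561 ± 38.7 CPM. For both, all 3 Lcn2 null libraries lay above the wild type libraries on deposited CPM, but neither was called (adjusted p = 0.247 and 0.295). The 95% interval of the log2 difference was 0.21 to 0.91 for Sdf2l1, 0.13 to 0.65 for Hsp90b1, -0.17 to 0.68 for Ddit3 and -0.42 to 0.97 for Trib3. In all, 9 of the 10 values were above 0, Herpud1 (-0.12) being the exception, where 57.5% of all genes were above 0. The median over the 10 was 0.30 against 0.04 over all genes, and 0.25 against 0.00 after size factors, with the same 9 of 10 counted positive.

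Whether the response to CCl4 itself differed between the genotypes was tested as an interaction over the 12 libraries. limma called 0 of the 10, as did edgeR and DESeq2, where limma called 2.15% of all 13741 genes, 56.9% of them positive (41.1% after size factors). The share called was 2.48% after size factors, 2.39% by edgeR and 5.25% by DESeq2. At an unadjusted p under 0.05, 3 were positive and 1 negative, where 15.7% of all genes had such a p. Sdf2l1 had the largest value (log2 difference 1.32 ± 0.35 SE, 95% interval 0.59 to 2.05, adjusted p = 0.0574), with 1.23 after size factors (adjusted p = 0.0748). It passed the threshold without Lcn2 null CCl4 replicate 3 (1.43, adjusted p = 0.039), Lcn2 null oil replicate 3 (1.59, adjusted p = 0.0167) or wild type oil replicate 1 (1.497, adjusted p = 0.0338). Over all 12 omissions of 1 library it ranged from 0.97 to 1.59, with adjusted p up to 0.15. Hsp90b1 had 0.62 ± 0.19 SE (adjusted p = 0.0954) and passed without Lcn2 null oil replicate 3 (0.76, adjusted p = 0.0365). Its range over the same omissions was 0.50 to 0.76, with adjusted p up to 0.226. Pdia4 had 0.51 (adjusted p = 0.206) and Trib3 had -1.15 ± 0.45 SE (adjusted p = 0.218). The same test called 3 of 7 measured neutrophil markers, 2 of 9 macrophage markers, 2 of 5 dividing cell markers and 1 of 5 measured bile duct markers. All of these were positive, and their part in the values of the 10 genes was not tested. For Hspa5, the main chaperone, the difference was 0.08 with an interval of -0.48 to 0.64, and -0.01 after size factors. For Ddit3 it was -0.06 with an interval of -0.68 to 0.56. A call in 1 genotype and not in the other was thus not backed by the test of the difference for any of the 10 genes over all libraries.

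The rest of the pathway was followed in lists of known genes. Of 20 other lumenal chaperones and folding enzymes, 14 rose on CCl4 in Lcn2 null livers and 0 fell, where 29.6% of all genes were called higher, with a list median of 0.85 against 0.35 over all genes. In wild type livers 5 rose and 0 fell, near the 18.5% of all genes called higher, with a median of 0.36 against 0.27. After size factors 4 rose in Lcn2 null livers (Dnajc10, Erp29, Pdia6 and Manf), where 12.5% of all genes were called higher and 10.8% lower. The list median there was 0.43 against 0.03. In wild type livers 2 rose (Dnajc10 and Txndc5) and Calr fell, where 7.37% of all genes were called higher and 7.01% lower. The wild type list median was 0.02 against 0.01. Dnajc10 (ERdj5), a reductase of misfolded proteins, averaged 68.4 ± 2.76 CPM in Lcn2 null CCl4 livers and 17.9 ± 2.45 CPM in Lcn2 null oil livers (log2 fold change 1.89 ± 0.12 SE, adjusted p = 2.57e-07). In the wild type it averaged 50.4 ± 17.0 CPM with CCl4 and 19.9 ± 1.84 CPM with oil (1.25 ± 0.19 SE, adjusted p = 0.0002). Erp29, a lumenal folding factor, averaged 93.0 ± 1.56 CPM in Lcn2 null CCl4 and 41.5 ± 4.64 CPM in Lcn2 null oil livers (1.15, adjusted p = 5.05e-06). Its wild type means were 80.3 ± 16.6 CPM with CCl4 and 55.2 ± 2.66 CPM with oil. Hspa13, an Hsp70 relative of the microsomes, rose in wild type livers on CPM (0.77, adjusted p = 0.00101). Its Lcn2 null means were also higher with CCl4, 48.2 ± 2.76 CPM against 26.0 ± 1.56 CPM with oil. Manf rose in wild type livers on CPM (0.85 ± 0.21 SE, adjusted p = 0.00868), with 235 ± 42.3 CPM against 135 ± 49.2 CPM with oil. Txndc5, a further disulfide isomerase, averaged 174 ± 23.3 CPM in Lcn2 null CCl4 livers and 87.6 ± 2.46 CPM in Lcn2 null oil livers (0.97, adjusted p = 1.83e-05), and 162 ± 7.86 CPM and 79.6 ± 7.49 CPM in wild type CCl4 and oil livers (1.02, adjusted p = 8.81e-06).

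Between the genotypes on CCl4, 0 of these 20 were called by limma, and 11 had an unadjusted p under 0.05, all higher in Lcn2 null livers, where 8.67% of all genes had such a p. All 20 values were above 0 under both scalings (57.5% of all genes on CPM), with a median of 0.27 against 0.04 over all genes. On oil 0 of the 20 were called and 6 had an unadjusted p under 0.05 (1 positive and 5 negative), where 19.3% of all genes had such a p, and the median was -0.09 against -0.03 over all genes. In the test of the interaction 1 of the 20 passed, where 2.15% of all genes were called. It was Pdia6 (log2 difference 0.82 ± 0.17 SE, adjusted p = 0.0177, 0.73 after size factors). This disulfide isomerase, which binds BiP, had 363, 436 and 409 CPM in Lcn2 null CCl4 livers, against 161, 187 and 231 CPM in Lcn2 null oil livers, and 342, 287 and 282 CPM in wild type CCl4 livers, against 258, 248 and 255 CPM in wild type oil livers. CCl4 libraries were above oil libraries in both genotypes, and the Lcn2 null oil libraries were the lowest of all.

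Of 24 genes of degradation and translocation at the reticulum, 9 rose in Lcn2 null and 6 in wild type livers on CCl4, and 0 fell, where 29.6% and 18.5% of all genes were called higher. The list medians were 0.38 in both, against 0.35 and 0.27 over all genes. After size factors 3 rose and 1 fell in Lcn2 null livers, and 1 rose in wild type livers. Of all genes, 12.5% were then called higher and 10.8% lower in Lcn2 null livers, and 7.37% and 7.01% in wild type livers. The list medians were then -0.05 and 0.05, against 0.03 and 0.01. Ssr1, a subunit of the translocon-associated complex, was called under both scalings in both genotypes. It averaged 203 ± 19.0 CPM in Lcn2 null CCl4 and 86.5 ± 6.19 CPM in Lcn2 null oil livers (log2 fold change 1.22, adjusted p = 1.51e-06), and 170.2 ± 14.1 CPM and 84.7 ± 14.7 CPM in wild type CCl4 and oil livers (1.01, adjusted p = 5.61e-05). Sec61b, a subunit of the translocation channel, and Selenos, a selenoprotein of the degradation complex, rose on CPM in both, by 1.09 and 0.79 in Lcn2 null livers and by 0.78 and 0.83 in wild type livers on the log2 scale. The ubiquitin-conjugating enzyme Ube2g2 rose in Lcn2 null livers (0.94, adjusted p = 6.72e-05). Its wild type means were also higher with CCl4, 51.7 ± 5.66 CPM against 31.3 ± 5.39 CPM with oil. Edem1, which takes misfolded glycoproteins to degradation, rose in wild type livers (0.71, adjusted p = 0.000278) on CPM only. Its Lcn2 null means were 188 ± 8.28 CPM with CCl4 and 143 ± 4.69 CPM with oil. Of the 12 sensors and membrane-bound factors, 5 rose in Lcn2 null livers and 3 in wild type livers on CPM, where 29.6% and 18.5% of all genes were called higher. In Lcn2 null livers they were Creb3l1, a membrane-bound factor, with a log2 fold change of 1.42, the translation factor Eif2s1 (eIF2α, the substrate of PERK), the related factor Creb3l2 and the site-1 and site-2 proteases Mbtps1 and Mbtps2 that cut ATF6, the last 4 with log2 fold changes of 0.73, 0.66, 0.61 and 0.75. In the wild type they were Atf6b, a relative of ATF6, Eif2ak3 (PERK) and again Creb3l1, with log2 fold changes of 0.96, 0.67 and 1.05. Creb3l1 had only 7 to 26 reads in Lcn2 null and 5 to 14 reads in wild type oil libraries. Its lowest Lcn2 null CCl4 library had 2.13 CPM, against 1.87 CPM in the highest Lcn2 null oil library. After size factors Creb3l1 rose and Creb3, Creb3l3 and Tmbim6 fell in Lcn2 null livers, where 12.5% of all genes were called higher and 10.8% lower. In wild type livers 0 were called, where the shares were 7.37% and 7.01%. There 5 had an unadjusted p under 0.05 (2 positive and 3 negative), where 30.4% of all genes had such a p. For both lists limma called 0 genes between the genotypes, on CCl4 or on oil. At an unadjusted p under 0.05 there were 6 of 24 (5 positive and 1 negative) and 1 of 12 (negative) on CCl4, where 8.67% of all genes had such a p. On oil there were 1 of 24 (negative) and 2 of 12 (1 in each direction), where 19.3% had.

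**Figure D3:**
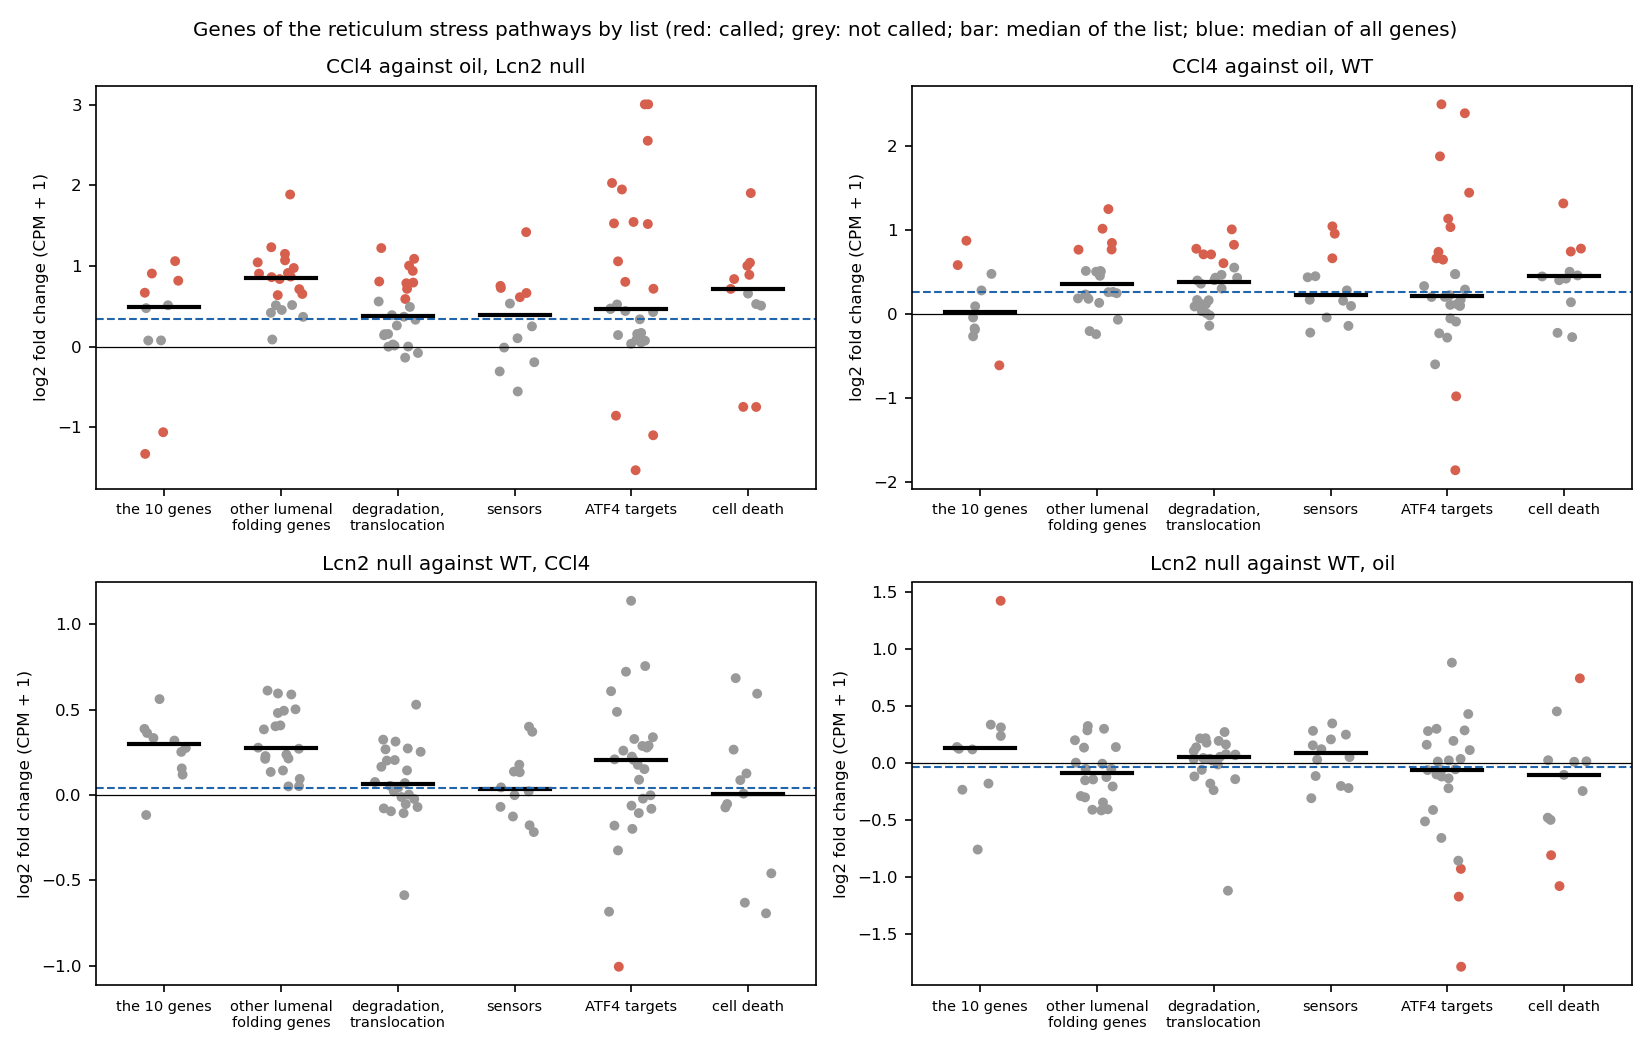
Log2 fold change on log2(CPM + 1) of each gene in 6 lists of the pathway, in the 4 comparisons, from deposited CPM. Points are genes (red called, grey not called), black bars list medians and blue dashed lines the median of all genes. In Lcn2 null livers on CCl4 the other lumenal folding genes lay around 0.85, above the all-gene median of 0.35, and after size factors their median was 0.43 against 0.03.

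Targets of ATF4 and the integrated stress response split in both directions on CCl4. In Lcn2 null livers 11 of 27 measured rose and 3 fell on CPM, where 29.6% of all genes were called higher and 4.51% lower. In wild type livers 9 of 28 rose and 2 fell, where the shares were 18.5% and 3.18%. After size factors 8 rose and 3 fell in Lcn2 null livers, and 6 rose and 3 fell in wild type livers. Of all genes, 12.5% were then called higher and 10.8% lower in Lcn2 null livers, and 7.37% and 7.01% in wild type livers. Those that rose were led by Atf3, a stress-induced repressor, and by enzymes of serine and folate metabolism. Atf3 averaged 12.5 ± 2.67 CPM in Lcn2 null CCl4 and 0.698 ± 0.454 CPM in Lcn2 null oil livers (log2 fold change 3.003, adjusted p = 4.5e-06), and 12.2 ± 5.21 CPM and 1.20 ± 0.115 CPM in wild type CCl4 and oil livers (2.50, adjusted p = 2.85e-05). Psat1, Psph and Mthfd2 had log2 fold changes of 3.004, 1.95 and 2.55 in Lcn2 null livers and of 2.39, 1.45 and 1.88 in wild type livers, and all were called under both scalings. In the oil libraries Atf3, Psat1 and Mthfd2 had only 2 to 12 reads each, so the size of these changes is uncertain. Chac1, a glutathione-degrading enzyme often taken as a specific ATF4 and CHOP target, fell by 0.86 on the log2 scale in Lcn2 null livers (adjusted p = 0.0206) and by 1.86 in wild type livers (adjusted p = 0.00412), at 2 to 63 reads per library. Vldlr, the very low density lipoprotein receptor, fell in Lcn2 null livers (-1.10) and Fgf21, a fasting hormone of the liver, fell in wild type livers (-0.98) at 1 to 38 reads per library. Vldlr had 6 to 37 reads in Lcn2 null CCl4 and 50 to 57 reads in Lcn2 null oil libraries. These groups overlapped, at 0.75 to 3.72 CPM with CCl4 and 3.59 to 6.32 CPM with oil.

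Cth, the enzyme that releases cysteine from cystathionine, had 200.98, 203 and 191 CPM in Lcn2 null CCl4 livers, against 695, 529 and 519.6 CPM in Lcn2 null oil livers. It had 268, 477 and 498 CPM in wild type CCl4 livers, against 523, 482 and 406 CPM in wild type oil livers. The Lcn2 null CCl4 libraries were the lowest of the 12. Cth fell in Lcn2 null livers (log2 fold change -1.53 ± 0.11 SE, adjusted p = 5.68e-07), and was lower in Lcn2 null than wild type livers on CCl4 (-1.01 ± 0.18 SE, adjusted p = 0.0478), a call that size factors did not give. The interaction of Cth passed (-1.31 ± 0.26 SE, adjusted p = 0.012, and -1.40 after size factors). Cth was the only 1 of 27 measured targets called between the genotypes on CCl4, where 0.298% of all genes were called. Before adjustment 7 targets were higher in Lcn2 null livers and 2 lower at p under 0.05, where 8.67% of all genes had such a p. Of the 27 values 17 were above 0 (57.5% of all genes), with a median of 0.21 against 0.04 over all genes. On oil 3 of 25 measured targets were called lower in Lcn2 null livers and 0 higher, where 3.80% of all genes were called lower. With p under 0.05 before adjustment there were 5 in each direction, where 19.3% of all genes had such a p. The 3 called were Asns, asparagine synthetase, the transcription factor Cebpb, and Nupr1, a stress-induced chromatin protein, with log2 fold changes of -1.79, -0.93 and -1.17. Asns had 0 to 4 reads in Lcn2 null and 18 to 37 reads in wild type oil libraries, in the other direction from Trib3, and its interaction passed (2.12 ± 0.41 SE, adjusted p = 0.0121), though fold changes at such counts depend on the pseudocount.

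**Figure D4:**
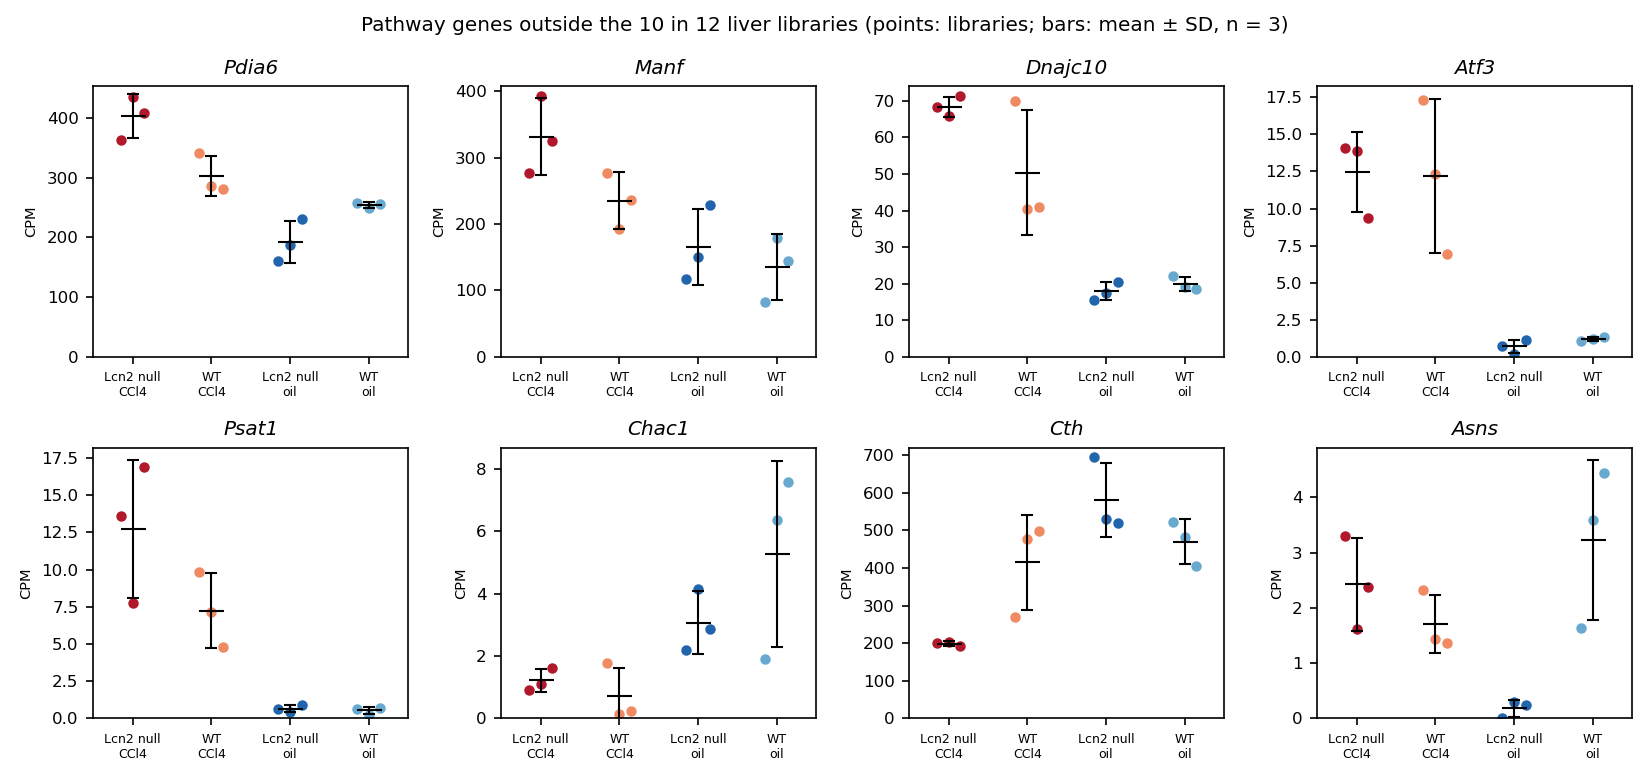
CPM of 8 pathway genes outside the 10 in each of the 12 libraries (points), with the mean and SD of each group of 3 (bars). Atf3 and Psat1 were higher and Cth, in Lcn2 null livers, lower with CCl4 than with oil, and Asns was at 0 to 0.287 CPM in the Lcn2 null oil libraries.

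Of 11 cell death genes linked to reticulum stress, 6 rose and 2 fell on CCl4 in Lcn2 null livers, and 3 rose in wild type livers. Of all genes, 29.6% and 18.5% were called higher there, and 4.51% and 3.18% lower. The list medians were 0.72 and 0.45, against 0.35 and 0.27 over all genes. After size factors 3 rose and 2 fell in Lcn2 null livers and 1 rose in wild type livers. Of all genes, 12.5% were then called higher and 10.8% lower in Lcn2 null livers, and 7.37% and 7.01% in wild type livers. The list medians were then 0.32 and 0.17, against 0.03 and 0.01. Tnfrsf10b (DR5), a death receptor and known CHOP target, was called under both scalings in both genotypes, with 4.63 ± 0.979 CPM in Lcn2 null CCl4 and 0.558 ± 0.591 CPM in Lcn2 null oil livers (log2 fold change 1.90, adjusted p = 0.000267), and 2.73 ± 0.609 CPM and 0.491 ± 0.224 CPM in wild type CCl4 and oil livers (1.32, adjusted p = 0.00177). The pore-forming BCL2 family members Bak1 and Bax rose on CPM, by 1.002 and 0.72 on the log2 scale in Lcn2 null livers and by 0.75 and 0.78 in wild type livers. Txnip, a binding partner of thioredoxin, fell by 0.75 in Lcn2 null livers (adjusted p = 0.00274). Bbc3 (PUMA), a BH3-only activator of apoptosis, averaged 20.46 ± 0.836 CPM in Lcn2 null oil livers and 11.98 ± 2.38 CPM in wild type oil livers (0.74, adjusted p = 0.0218), and in Lcn2 null livers it fell on CCl4 (-0.75, adjusted p = 0.00146), as Trib3 did. Casp12, a caspase of the rodent reticulum membrane, and Bok, a BCL2 family member, were lower in Lcn2 null than wild type livers on oil (-1.08 and -0.81, adjusted p = 0.0252 and 0.0264). Casp12 had 11 to 21 reads in Lcn2 null and 24 to 56 reads in wild type oil libraries. In Lcn2 null livers Bok rose with CCl4 on CPM, to 25.1 ± 2.36 CPM against 11.8 ± 2.83 CPM with oil (1.04, adjusted p = 0.00051). On oil 1 of the 11 was called higher and 2 lower, where 1.11% and 3.80% of all genes were. Before adjustment 2 in each direction had p under 0.05, where 19.3% of all genes had. On CCl4 limma called 0 of the 11 between the genotypes, while 4 had an unadjusted p under 0.05 (2 positive and 2 negative), where 8.67% of all genes had such a p.

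Over the 12 libraries, the genes most like Hspa5 by Pearson correlation of log2(CPM + 1), among 7544 genes with a mean of at least 10 CPM, were Manf (r = 0.99), Cdk2ap2, Sec61a1, Uap1 and Ddx23 (r = 0.94 to 0.95). Manf, a secreted reticulum stress protein, had 277, 392 and 325 CPM in Lcn2 null CCl4 libraries and 117, 150 and 228 CPM in Lcn2 null oil libraries, in the same order within each group as Hspa5. Those most like Ddit3 were Tmem248 (r = 0.98), Gfpt1, Gart, Arpc5l and Ctc1 (r = 0.96 to 0.97). Among the 10 genes, Ddit3 with Hspa5 (r = 0.88), Sdf2l1 with Pdia4 (r = 0.88) and Ddit3 with Atf4 (r = 0.87) were the closest pairs, and Herpud1 with Hsp90b1 (r = -0.70) the most opposed, Trib3 being under the level used. These correlations describe 12 points that share 4 groups and the scaling of their libraries, and no test was made of them.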

How the data were processed

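The authors sequenced whole liver RNA in 12 libraries. Per the methods and processing notes, reads were trimmed with Trim Galore and aligned to mm10 with STAR. The sources name both Salmon and featureCounts for counting and more than 1 library kit, so strand was taken as unknown. The authors deposited CPM (the count of a gene scaled to the library's total in genes, without size factors) in 4 tables, 1 per comparison, each library standing in more than 1 table with the same values. All 24 value columns were mapped by name. The tables' columns of the authors' own DESeq2 comparisons (fold changes and p-values) and tables of gene ontology enrichment were not used.

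Because CPM and not counts were deposited, log2(CPM + 1) was tested with limma 3.58.1 (R 4.3.3, trend of variance with mean, two-sided), with only the compared groups in each fit and all 12 libraries for the interaction. Thresholds were an adjusted p of 0.05 over all genes and a log2 fold change of 0.56, as in the study's methods. In CPM steps, 100% of values were whole reads (within 0.01 of a read), on which edgeR 4.0.16 and DESeq2 1.42.0 were run as alternatives, and limma was rerun after DESeq2 or TMM scaling, with pseudocounts of 0.5 and 5 CPM, without genes under a mean of 1 CPM, without a fold threshold, with a replicate block, in 1 fit of all libraries and without each library. The scripts were tested on simulated data.

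All 10 genes were named in each comparison. Of each other list, up to 4 called genes per direction with the largest moderated statistic were named, and for Hspa5 and Ddit3 the 5 genes most like them. Calr, Creb3, Creb3l3, Creb3l1 in Lcn2 null livers, Tmbim6 and the genes called after size factors were named after their values were seen. The members and lists were chosen with earlier results of these data known. Positions are from GENCODE M21 (GRCm38) and promoters from RefSeq (GRCm38.p6).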

Additional observations from a re-analysis of the deposited data

Results flagged for a closer look

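Pdia6, Asns and Cth were flagged because the test of the difference between the genotypes' responses to CCl4 passed the threshold with limma. They were 1 positive of 20 other lumenal folding genes, and 1 positive and 1 negative of 25 measured ATF4 targets. The lists of degradation (24 genes), sensors (12) and cell death (11) had 0. Of all 13741 genes 2.15% were called, and 2.48% after size factors. The log2 difference, the Lcn2 null response minus the wild type response, was 0.82 for Pdia6, 2.12 for Asns and -1.31 for Cth, and it passed after DESeq2 size factors too, at 0.73, 2.17 and -1.40. For Pdia6 the log2 fold change with CCl4 was 1.07 in Lcn2 null and 0.25 in wild type livers. For Asns it was 1.52 in Lcn2 null and -0.60 in wild type livers, at 0 to 37 reads per library. For Cth it was -1.53 in Lcn2 null and -0.23 in wild type livers. Leaving out single libraries was not run for them.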

How the results depend on the processing

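Of the fold changes of the 10 genes in the 5 tests, 435 values under settings that keep all libraries kept their direction and side of the threshold, 24 changed sign, 23 lost and 8 gained a call. With DESeq2 size factors, TMM, edgeR and DESeq2 on reads, 2 of the 10 genes were called in Lcn2 null livers on CCl4 in place of 6. In that order, Hsp90b1 in wild type livers on CCl4 had -0.055, -0.044, -0.046 and -0.058, Dnajb9 had -0.24, -0.22, -0.25 and -0.26 in wild type and -0.35, -0.34, -0.37 and -0.37 in Lcn2 null livers, Xbp1 in Lcn2 null livers had -0.35, -0.35, -0.35 and -0.36, and the interaction had -0.011, -0.0064, -0.0096 and -0.013 for Hspa5 and -0.061, -0.056, -0.063 and -0.067 for Atf4. Genes called in wild type livers on CCl4 numbered 2278 after size factors, 2279 after TMM and 2226 with edgeR, against 3435, and a pseudocount of 5 gave 2081 there and 3388 in place of 5336 in Lcn2 null livers. DESeq2 on reads called 184 genes between the genotypes on CCl4 (43 with limma) and 722 in the interaction (295 with limma).

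Replicate numbers did not pair the samples: same-numbered libraries correlated in their deviations from the group means at -0.10 to 0.07 over 12 pairs. A fit with the replicate number as a block called 2 of the 10 genes on oil, adding Sdf2l1, and 76 genes on CCl4 in place of 43.

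Without 1 library at a time, the genes called of the 10 ranged over 0 to 3 in wild type livers on CCl4, 1 to 2 on oil and 0 to 2 in the interaction, and genes called in all over 337 to 632 on oil, 16 to 97 on CCl4 between genotypes and 136 to 459 in the interaction. Signs turned for Dnajb9 (-0.087 to 0.24 in wild type and -0.047 to 0.28 in Lcn2 null livers with CCl4, -0.063 to 0.28 on oil, -0.029 to 0.22 on CCl4 between genotypes, -0.17 to 0.18 in the interaction), Pdia4 (-0.14 to 0.041) and Trib3 (-0.46 to 0.11) in wild type livers, Xbp1 on oil (-0.0100 to 0.24), Herpud1 on CCl4 between genotypes (-0.35 to 0.015) and, in the interaction, Hspa5 (-0.087 to 0.29), Atf4 (-0.086 to 0.19) and Ddit3 (-0.27 to 0.15). The causes were not tested. The calls and medians of the other lists after size factors were chosen after seeing the data. Counts limit Trib3 (19 reads at the lowest) among the 10 genes, and Asns, Chac1, Fgf21, Atf3, Psat1, Mthfd2 and Tnfrsf10b, each with 3 or fewer reads in at least 1 library.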
